A study of Mus musculus with 12 samples.

Results

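A set of 9 genes used to follow macrophages and other myeloid cells were described across 12 RNA libraries of mouse small bowel. They are Itgam, Csf1r, Cd68, C1qa, C1qb, C1qc, Lyz2, Mrc1 and Cd163, found by symbol in the count tables, and they make up 9 of 35791 genes. The libraries came from male C57BL/6 mice, labelled as 8 to 10 weeks old, in 4 groups of 3. Post 2'-FL libraries were labelled as taken after ileocecal resection (removal of the end of the ileum and the cecum) with 2'-fucosyllactose (2'-FL), a sugar of human milk. Post control libraries were labelled as taken after resection with no supplement. Pre 2'-FL and Pre control libraries carry the corresponding labels from before resection. The dose label, 2.5 g/L from day 0, is carried by the Pre 2'-FL libraries as well as the Post 2'-FL libraries. A time before resection may lie before a first dose on day 0. Whether the Pre 2'-FL libraries came from dosed mice is therefore not settled. A protocol common to the 12 libraries dates tissue collection 8 weeks past surgery, which goes against the Pre labels, and groups here follow each library's own label. A liquid diet is given for day 7 after surgery, followed by chow. The segment of bowel and the animal behind each library were not stated, so the p-values measure spread between these libraries, part of which may be technical. The comparisons ask how bowel labelled Post differs from bowel labelled Pre, and whether it differs further with 2'-FL. The age label is the same in Pre and Post, so age at collection is not settled. None of the 4 groups is labelled as sham-operated. In Post against Pre, resection, surgery as such, time, age, diet and bowel site cannot be told apart.

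Macrophages of the gut wall lie beneath the epithelium, where they take up bacteria and dying cells. Many of them are replaced from blood monocytes, and their survival depends on the receptor encoded by Csf1r, which binds the growth factors encoded by Csf1 and Il34. Tissue macrophages also make the 3 chains of C1q, the recognition part of the first complement component. Because whole bowel was sequenced, fewer cells of a type and less RNA per cell cannot be told apart.

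The libraries held between 5663275 and 9385266 counts, and 13154 genes had enough counts to be tested, among them 8 of the 9 myeloid genes; Cd163 fell below the filter. Transcript length went with group. Spearman's rho across genes between transcript length and a library's deviation from each gene's average was -0.44, -0.56 and -0.60 in the Post 2'-FL libraries. It was -0.04, -0.21 and 0.36 in Post control, 0.50, 0.39 and 0.36 in Pre 2'-FL, and 0.42, 0.45 and 0.26 in Pre control. In Post 2'-FL against Pre 2'-FL, the median log2 change was 1.22 over the 1295 genes with the shortest transcripts and -1.20 over the 1295 with the longest. Each change below is therefore also given from a fit with length and GC content corrected, called the corrected change. Levels are in CPM, counts scaled to the library's total. The 7 epithelial genes listed were detected in every group, with group means from 105 CPM (Krt18, in Post 2'-FL) to 37000 CPM (Fabp2, in Post 2'-FL). Of 4 macrophage-defining genes, Mertk, Adgre1, Cx3cr1 and Fcgr1, none was at 0 in any group.

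In GRCm38.p6 the C1q genes are neighbours, C1qb at chr4:136880126-136886200, C1qc at chr4:136889801-136892936 and C1qa at chr4:136895916-136898844, and Lyz2 lies at chr10:117277541-117282272, next to Lyz1 at chr10:117287795-117292868. Itgam lies at chr7:128062640-128118491, Cd68 at chr11:69664213-69666170, Mrc1 at chr2:14229414-14332023 and Cd163 at chr6:124304636-124330529.

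**Figure D1:**
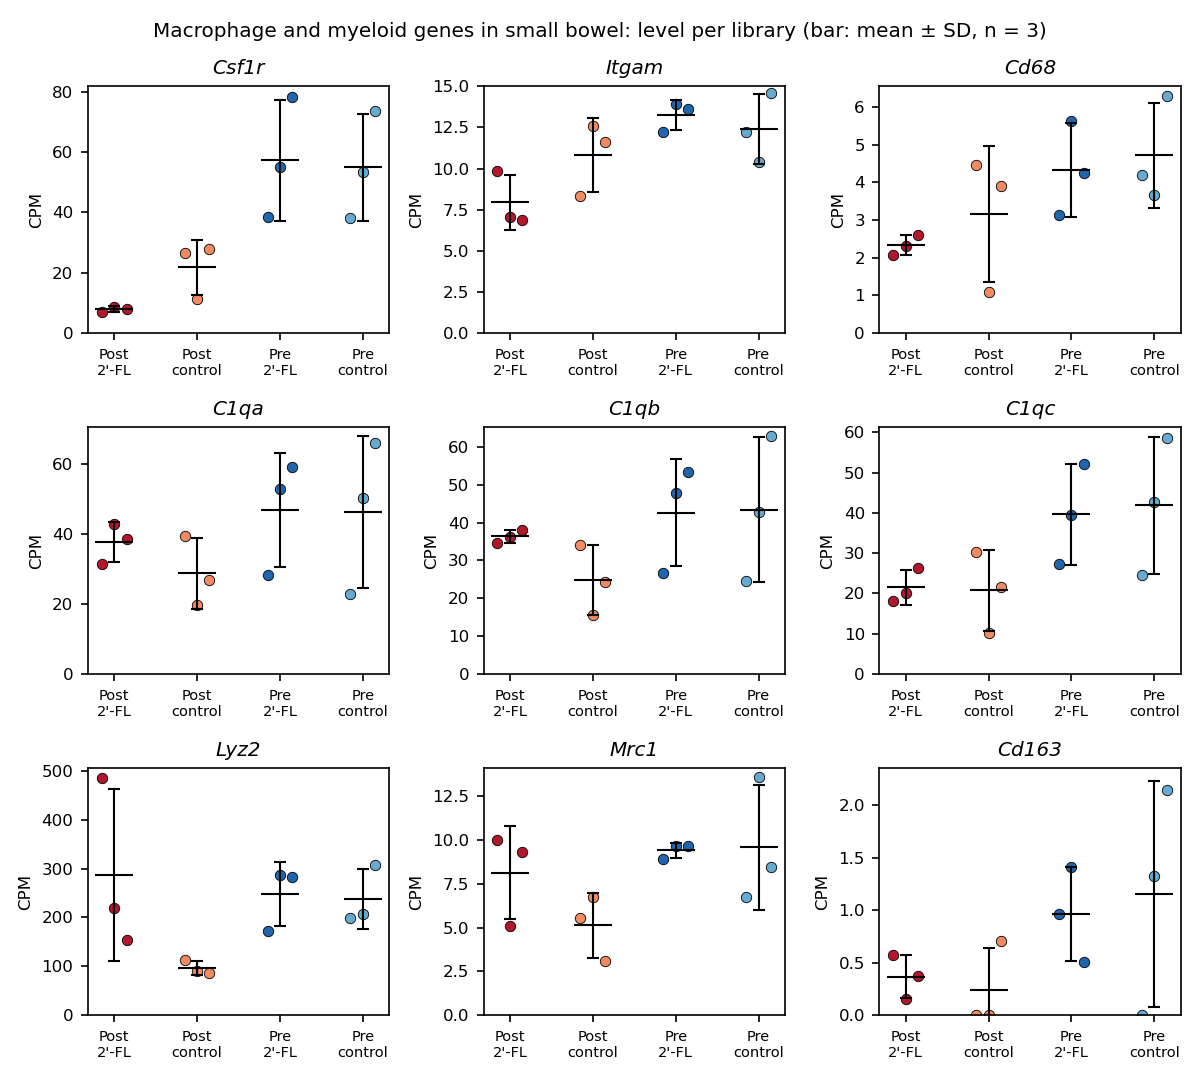
Level of each of the 9 genes (CPM, linear axes from 0) in the 12 libraries, by group; points are libraries, bars are the mean ± SD of 3 libraries. Csf1r separates the Post from the Pre libraries without overlap, while the C1q genes spread widely within groups.

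Over both arms and in the 2'-FL arm, Csf1r was the tested gene of the set that differed most between Post and Pre. It stood at 6.82, 8.78 and 8.00 CPM in the Post 2'-FL libraries, at 26.5, 11.3 and 27.7 CPM in Post control, at 38.3, 55.0 and 78.3 CPM in Pre 2'-FL and at 38.0, 53.3 and 73.5 CPM in Pre control. The 3 Post 2'-FL libraries were the lowest of the 12, the 3 Post control libraries came next, and the 2 Pre groups overlapped almost fully. Over both arms its log2 change was -2.09 ± 0.25 (4.25-fold lower; adjusted p = 3.22e-05), with a corrected change of -1.56 ± 0.23 (adjusted p = 0.00022). In the 2'-FL arm the log2 change was -2.85 ± 0.37 (adjusted p = 5.43e-05), and the corrected change was -2.05 (adjusted p = 0.000669). In the control arm it was -1.32 ± 0.33 (adjusted p = 0.0255), and the corrected change was -1.07 (adjusted p = 0.0399). The corrected call was lost without Post 2'-FL 3 (-1.06), Post control 1 (-1.25), 2 (-0.79) or 3 (-1.20), or Pre control 2 (-1.08) or 3 (-0.85). The control arm call as fitted was lost without Post control 1 (log2 change -1.45), Post control 2 (-0.99), Pre control 2 (-1.31) or Pre control 3 (-1.05), with adjusted p between 0.0619 and 0.118. The calls in the 2'-FL arm and over both arms were kept without any single library, also when corrected.

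Post 2'-FL libraries had less Csf1r than Post control libraries, with a log2 change of -1.48 ± 0.36 (adjusted p = 0.00592) and no overlap between groups. The corrected change was -0.93 ± 0.34 and did not pass the test (adjusted p = 0.0683). The difference between the 2 arms in their change (interaction) was -1.53 ± 0.48 (adjusted p = 0.0457), against a corrected -0.98 ± 0.46 (adjusted p = 0.253). That call was lost in 8 of the 12 fits with 1 library left out, with adjusted p from 0.0798 to 0.148 and log2 values from -1.55 to -1.24. The libraries concerned were Post 2'-FL 1 and 3, Post control 1 and 3, Pre 2'-FL 2 and 3, and Pre control 1 and 2. Pre 2'-FL and Pre control were alike in mean, at 57.2 ± 20.1 and 54.9 ± 17.8 CPM (SD, n = 3 each), with a log2 change of 0.06 and a 95% interval from -0.69 to 0.80.

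Csf1, one ligand of this receptor, was also lower in Post than in Pre. It read 1.89, 3.39 and 2.42 CPM in Post 2'-FL, 3.54, 2.56 and 4.31 CPM in Post control, 8.22, 10.9 and 9.66 CPM in Pre 2'-FL, and 4.07, 8.53 and 16.5 CPM in Pre control. Only Pre control 1 reached down into the Post range. The log2 change over both arms was -1.67 ± 0.30 (adjusted p = 0.000466; corrected -1.07, adjusted p = 0.00748). Il34, the other ligand, had a change of -0.83 ± 0.32 (adjusted p = 0.036; corrected -0.87, adjusted p = 0.0296). Its call was lost without Post 2'-FL 1 or 3, Post control 2 or 3, Pre 2'-FL 2, or Pre control 2 or 3, with log2 values from -0.86 to -0.59. Over both arms 56.4% of all tested genes were called and 31.1% fell (corrected, 43.2% and 18.7%). Of the 7 tested myeloid growth factor and receptor genes, 4 fell and 1 rose over both arms. The others that fell were Csf2ra and Csf2rb, the chains of the receptor for the cytokine encoded by Csf2, at -0.95 ± 0.24 and -0.78 ± 0.23, and the one that rose was Csf2 itself, at 1.44 ± 0.44. With length and GC corrected, 3 fell and none rose (Csf2, 0.56, adjusted p = 0.304, by edgeR, Csf2rb, -0.09, adjusted p = 0.763). The level of Csf2 was low, at 3.25 ± 1.42 CPM in Post 2'-FL and 1.37 ± 0.564 CPM in Post control. In Pre it was 0.974 ± 0.427 CPM with 2'-FL and 0.588 ± 0.623 CPM in control (lowest library 0.203), so its change rests on few counts. Spi1, which encodes the myeloid transcription factor PU.1, fell without overlap, at 3.03, 4.0 and 2.98 CPM in Post 2'-FL and 4.62, 3.29 and 3.81 CPM in Post control, against 6.04, 5.63 and 7.96 CPM in Pre 2'-FL and 6.48, 6.20 and 10.3 CPM in Pre control. Its change over both arms was -0.96 ± 0.21 (adjusted p = 0.00156; corrected -0.81, adjusted p = 0.00385).

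Itgam encodes the CD11b chain of an integrin found on monocytes, macrophages, granulocytes and some other leukocytes. It stood at 9.85, 7.08 and 6.88 CPM in Post 2'-FL, 8.32, 12.6 and 11.6 CPM in Post control, 12.2, 13.9 and 13.6 CPM in Pre 2'-FL, and 12.2, 10.4 and 14.6 CPM in Pre control. The Post 2'-FL libraries lay below all Pre 2'-FL libraries, while in the control arm the groups overlapped. Itgam was called in the 2'-FL arm (log2 change -0.74 ± 0.24, adjusted p = 0.0171) and over both arms (-0.46 ± 0.16, adjusted p = 0.0269). With length and GC corrected, its changes were 0.00 (adjusted p = 0.991) and 0.04 (adjusted p = 0.846), so both calls ended there. The call in the 2'-FL arm was also lost without Post 2'-FL 2 or 3 or Pre 2'-FL 2 (log2 values from -0.65 to -0.62), and the call over both arms without Post 2'-FL 2 or 3, Post control 1, Pre 2'-FL 2 or 3, or Pre control 1 or 3 (from -0.45 to -0.34). Itgb2, whose product pairs with CD11b on the cell surface, averaged 4.35 ± 1.05 CPM in Post 2'-FL, 8.87 ± 4.68 CPM in Post control, 13.3 ± 1.47 CPM in Pre 2'-FL and 12.8 ± 4.19 CPM in Pre control. It fell over both arms (log2 change -1.05 ± 0.26, adjusted p = 0.00387; corrected -0.76, adjusted p = 0.0226). The sister chains Itgal and Itgax fell as well, at -1.33 ± 0.20 and -1.64 ± 0.29 (corrected -0.62 and -1.15, both called).

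Cd68, a glycoprotein of the lysosomes of macrophages and other phagocytes, was among the lower genes of the set. It read 2.08, 2.31 and 2.60 CPM in Post 2'-FL, 4.47, 1.10 and 3.91 CPM in Post control, 3.14, 5.63 and 4.24 CPM in Pre 2'-FL, and 4.20, 3.66 and 6.30 CPM in Pre control. The 3 Post 2'-FL libraries lay below the 3 Pre 2'-FL libraries, and Post control spanned both levels. No change of Cd68 passed the test as fitted: over both arms it was -0.71 ± 0.30 (adjusted p = 0.0556) and in the 2'-FL arm -0.88 ± 0.44 (adjusted p = 0.102). Corrected for length and GC, the changes were -1.09 ± 0.30 (adjusted p = 0.0105) and -1.56 ± 0.44 (adjusted p = 0.0147). The corrected call in the 2'-FL arm was lost without Post 2'-FL 1 (-1.45, adjusted p = 0.0556) or Pre 2'-FL 2 (-1.29, adjusted p = 0.0666).

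The C1q genes lie side by side on chromosome 4 and encode the A, B and C chains that assemble into 1 molecule. Because they vary together within groups, the 250 bases before the promoter table's start of C1qb and of C1qc are shown (RefSeq, GRCm38.p6, minus strand, written 5′ to 3′). Capitals mark GAGGAA or its reverse complement TTCCTC, the core bound by PU.1, and each window held 1 match. The C1qb window is chr4:136886201-136886450 and the C1qc window is chr4:136892915-136893164, whose last bases lie within the span of the gene given above.
C1qb: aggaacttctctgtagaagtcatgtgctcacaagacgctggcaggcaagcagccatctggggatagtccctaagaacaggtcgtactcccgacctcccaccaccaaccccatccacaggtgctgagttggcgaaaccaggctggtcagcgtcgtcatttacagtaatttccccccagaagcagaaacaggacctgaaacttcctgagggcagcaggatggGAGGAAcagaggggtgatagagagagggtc
C1qc: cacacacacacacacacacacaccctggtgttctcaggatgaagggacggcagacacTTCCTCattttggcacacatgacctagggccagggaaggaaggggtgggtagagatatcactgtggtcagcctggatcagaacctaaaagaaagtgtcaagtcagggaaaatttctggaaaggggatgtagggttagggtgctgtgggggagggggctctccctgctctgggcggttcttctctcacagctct
On either strand these 6 bases occur in 7639 of 32851 such windows (23.3%), so a match describes the sequence and names no bound site. Of the 7 members with a window, 5 held a match: the 2 shown, Itgam with 2, Cd68 with 1 and Mrc1 with 3. Lyz2 and Cd163 held none.

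C1qa read 31.6, 42.8 and 38.7 CPM in Post 2'-FL, 39.6, 19.7 and 27.0 CPM in Post control, 28.3, 53.0 and 59.1 CPM in Pre 2'-FL, and 22.9, 50.3 and 66.0 CPM in Pre control. C1qb read 34.7, 36.3 and 38.1 CPM in Post 2'-FL, 34.2, 15.7 and 24.3 CPM in Post control, 26.6, 47.8 and 53.5 CPM in Pre 2'-FL, and 24.5, 42.9 and 62.9 CPM in Pre control. For both genes the first library of each Pre group was the lowest of its group, and the Post and Pre ranges overlapped. C1qc read 18, 20.2 and 26.4 CPM in Post 2'-FL, 30.4, 10.2 and 21.7 CPM in Post control, 27.2, 39.5 and 52.2 CPM in Pre 2'-FL, and 24.5, 42.6 and 58.5 CPM in Pre control. Here all Post 2'-FL libraries lay below all Pre 2'-FL libraries. Over both arms C1qc had a log2 change of -0.94 ± 0.26 (1.92-fold lower; adjusted p = 0.00736), and this call was kept without any single library. C1qa and C1qb did not pass the test, with log2 changes of -0.50 ± 0.25 (adjusted p = 0.107) and -0.52 ± 0.24 (adjusted p = 0.0782). Corrected for length and GC, all 3 were called over both arms, at -0.72 ± 0.24 for C1qa (adjusted p = 0.0266), -0.81 ± 0.23 for C1qb (adjusted p = 0.0126) and -1.18 ± 0.25 for C1qc (adjusted p = 0.00228). The corrected call of C1qa was lost without Post 2'-FL 1 or 3, Post control 2, Pre 2'-FL 2 or 3, or Pre control 2 or 3, with log2 values from -0.68 to -0.57. Within arms, the corrected change of C1qc was called in the 2'-FL arm (-1.35 ± 0.36, adjusted p = 0.0108; without Pre 2'-FL 3 -1.10, adjusted p = 0.0505).

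**Figure D2:**
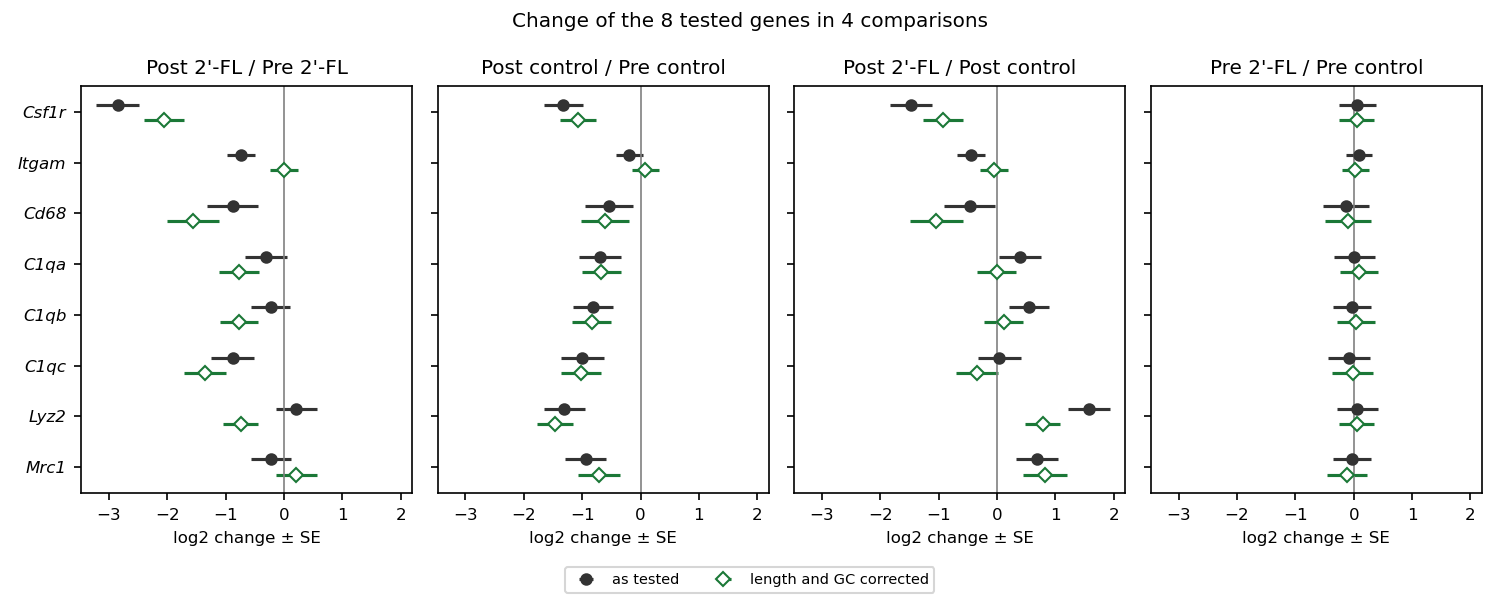
Log2 change ± SE of the 8 tested genes in 4 comparisons, with the first-named group over the second; filled circles are the test as fitted and open diamonds the same test with length and GC corrected. Csf1r lies left of 0 in 3 of the 4 panels, and in Pre 2'-FL against Pre control all 8 genes lie near 0.

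Of the C1q genes, C1qb and C1qa kept the closer proportion. C1qb counts per C1qa count ran from 0.849 to 1.10 in Post 2'-FL, 0.796 to 0.900 in Post control, 0.903 to 0.940 in Pre 2'-FL and 0.853 to 1.07 in Pre control. C1qc counts per C1qa count ran lower in Post, from 0.471 to 0.683 in Post 2'-FL and 0.519 to 0.807 in Post control, against 0.746 to 0.962 in Pre 2'-FL and 0.846 to 1.07 in Pre control. Csf1r counts per C1qa count ran from 0.205 to 0.216 in Post 2'-FL and 0.574 to 1.03 in Post control, against 1.04 to 1.35 in Pre 2'-FL and 1.06 to 1.66 in Pre control. The Csf1r ratio was lowest in the 3 Post 2'-FL libraries, next in Post control, and did not overlap between Post and Pre libraries. The Csf1r transcript, at 3870 nt, is longer than that of C1qa, at 1040 nt, and the part of the length trend in this ratio was not tested. Within groups (deviations of log2 CPM from the group mean over the 12 libraries, which share depth and scaling), Pearson's r was 0.97 between C1qa and C1qb, 0.95 between C1qb and C1qc and 0.93 between Csf1r and C1qc. It was -0.30 between Itgam and C1qc and -0.01 between Mrc1 and C1qc. Among 10128 other genes with a mean of at least 5 CPM, those with the pattern most like the mean of the C1q genes within groups were Apoe (r = 0.98), Cxcl14, Olfml3 and F2r (0.97 each) and Lifr (0.96). These correlations describe the 12 libraries and carry no test.

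**Figure D3:**
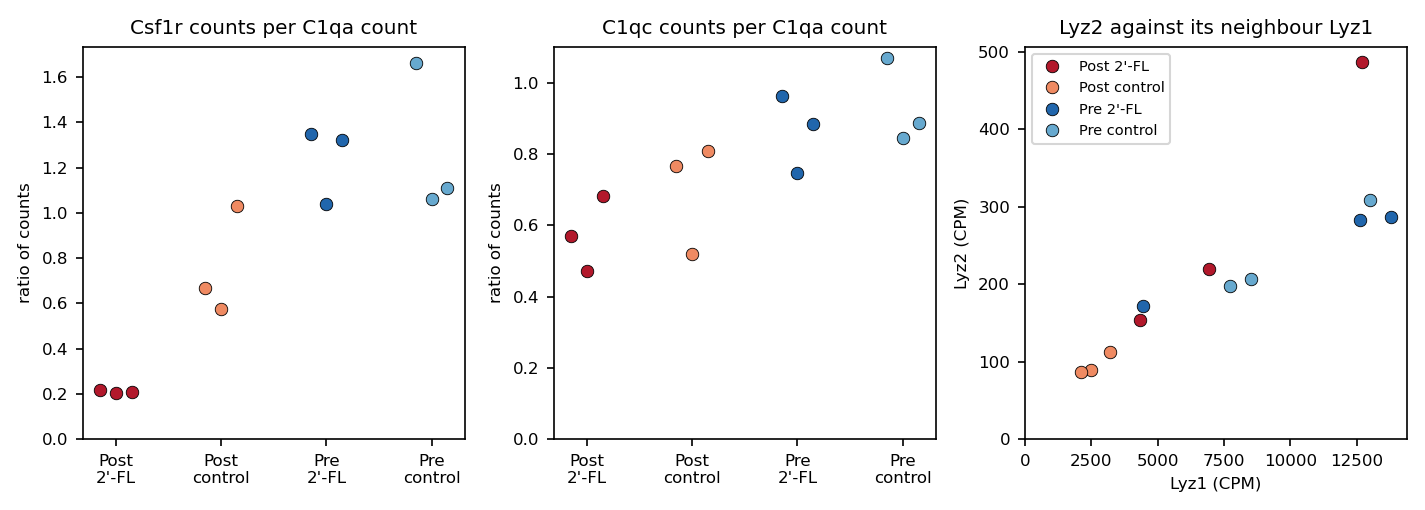
Left and middle, ratio of Csf1r and of C1qc counts to C1qa counts in each library, by group; right, Lyz2 against Lyz1 level (CPM) in each library. Csf1r per C1qa lies between 0.205 and 0.216 in Post 2'-FL and at 1.04 or above in all Pre libraries, and the 3 Post control libraries are the lowest in both Lyz1 and Lyz2.

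Lyz2 encodes the lysozyme of macrophages and neutrophils, an enzyme that breaks bacterial walls. Its neighbour on chromosome 10, Lyz1, encodes the lysozyme of Paneth cells, the defence cells at the base of the crypts. The first 240 bases of the coding sequences are shown as a stretch in which the genes differ, with the 17 differing bases in capitals (minus strand, written 5′ to 3′, GENCODE transcripts).
Lyz2: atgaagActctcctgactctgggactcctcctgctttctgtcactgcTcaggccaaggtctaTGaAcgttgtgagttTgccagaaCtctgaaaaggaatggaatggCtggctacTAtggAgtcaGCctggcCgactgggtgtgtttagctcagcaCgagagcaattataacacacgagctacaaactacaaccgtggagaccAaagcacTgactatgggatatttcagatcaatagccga
Lyz1: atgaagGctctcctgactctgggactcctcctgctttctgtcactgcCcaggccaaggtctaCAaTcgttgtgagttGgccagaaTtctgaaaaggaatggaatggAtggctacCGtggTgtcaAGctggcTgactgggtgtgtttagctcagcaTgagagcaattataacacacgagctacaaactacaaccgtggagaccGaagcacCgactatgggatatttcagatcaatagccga
Over the whole coding sequence they share 425 of 447 bases (95.1%), and the longest stretch with no difference is 118 bases. Lyz2 counts were whole numbers (within 0.02) in 2 of 12 libraries and Lyz1 counts in 0, and the sum of the 2 genes was whole in 5. Itgam counts were whole in 8, Cd68 counts in 9, and Mrc1 and Cd163 counts in 11. C1qa, C1qb, C1qc and Csf1r counts were whole in all 12. Fractions were thus not limited to the lysozyme genes, and between which genes reads had been divided was not tested. Lyz2 counts were 2.07% to 4.04% of Lyz1 counts in every library, and the deviations of the 2 genes within groups had r = 0.92. Lyz2 values are therefore uncertain as a measure of myeloid cells.

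Lyz2 stood at 486, 219 and 154 CPM in Post 2'-FL, 113, 89.4 and 86.0 CPM in Post control, 172, 287 and 283 CPM in Pre 2'-FL, and 198, 207 and 308 CPM in Pre control. The 3 Post control libraries were the lowest of the 12, and Post 2'-FL 1 was the highest. Post 2'-FL exceeded Post control by a log2 change of 1.58 ± 0.36 (2.98-fold; adjusted p = 0.00395), which was 0.96 without Post 2'-FL 1. The corrected change was 0.78 ± 0.30 and did not pass the test (adjusted p = 0.0792). In the control arm its log2 change was -1.31 ± 0.35 (adjusted p = 0.033; corrected -1.47, adjusted p = 0.0105). This call was lost without any of Post control 1 (-1.42), 2 (-1.23) and 3 (-1.21) or Pre control 2 (-1.37) and 3 (-1.07), and the corrected one without Post control 2 (-1.36, adjusted p = 0.0581). In the 2'-FL arm the change was 0.21 ± 0.35 (adjusted p = 0.618), against a corrected -0.74 (adjusted p = 0.069). Over both arms Lyz2 did not pass as fitted, at -0.55 ± 0.25 (adjusted p = 0.0723), and was called when corrected, at -1.10 ± 0.21 (adjusted p = 0.00127). The interaction was 1.52 ± 0.50 (adjusted p = 0.0509; corrected 0.73, adjusted p = 0.353), and it passed with DESeq2 size factors (adjusted p = 0.0455), by DESeq2 (0.014) and with no filter on low counts (0.0412). Lyz1 averaged 7980 ± 4260 CPM in Post 2'-FL, 2610 ± 552 CPM in Post control, 10300 ± 5110 CPM in Pre 2'-FL and 9750 ± 2840 CPM in Pre control. In the 2'-FL arm the log2 change of Lyz1 was -0.37 ± 0.45 (adjusted p = 0.5; corrected -1.39, adjusted p = 0.0184), with a sign opposite to that of Lyz2 as fitted. Its log2 change was 1.61 ± 0.46 in Post 2'-FL against Post control (adjusted p = 0.0133; corrected 0.76, adjusted p = 0.188), with the call lost without Post 2'-FL 1 (1.11) or Post control 3 (1.54). All 6 Paneth cell genes listed, Lyz1 among them, fell in the control arm and over both arms, also when corrected. In the 2'-FL arm 2 of the 6 fell as fitted and 6 when corrected. Of all tested genes, 6.33% fell in the control arm, 30% in the 2'-FL arm and 31.1% over both (corrected, 4.92%, 14.8% and 18.7%). In the control arm the count of Paneth cell genes called dropped to 1 when Post control 1 was left out, to 0 when Post control 2 was, to 4 when Post control 3 was and to 1 when Pre control 3 was. The call of Lyz1 there was lost without Post control 1 (-2.06), 2 (-1.84) or 3 (-1.75) or Pre control 3 (-1.64).

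Mrc1 and Cd163 encode scavenger receptors of resident tissue macrophages. Mrc1, the mannose receptor, stood at 10.0, 5.08 and 9.30 CPM in Post 2'-FL, 5.55, 6.76 and 3.11 CPM in Post control, 8.94, 9.69 and 9.66 CPM in Pre 2'-FL, and 6.74, 13.6 and 8.44 CPM in Pre control. The groups overlapped in every comparison, in the control arm only through the highest Post control and the lowest Pre control library. No change of Mrc1 passed the test, and the log2 changes were -0.58 ± 0.24 over both arms (adjusted p = 0.055; corrected -0.25, adjusted p = 0.437) and -0.94 ± 0.35 in the control arm (adjusted p = 0.0903). Cd163, which takes up hemoglobin bound to haptoglobin, was near the limit of detection. It had 3, 1 and 2 counts in the Post 2'-FL libraries, 0, 0 and 7 in Post control, 8, 9 and 3 in Pre 2'-FL, and 0, 13 and 18 in Pre control. A count of 0 allows up to 3 counts, which is between 0.301 and 0.568 CPM in these libraries, for counting error only. In 5 of the 6 Post libraries the count was at or under that floor, and no test was made.

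Per kilobase of transcript, Lyz2 was the highest of the set, at a mean of 218 CPM per kb in Post 2'-FL, 73.0 in Post control, 188 in Pre 2'-FL and 181 in Pre control. C1qa followed at 36.3, 27.7, 45.0 and 44.6 CPM per kb in the same groups. Csf1r was at 2.03 CPM per kb in Post 2'-FL and 5.64 in Post control, against 14.8 in Pre 2'-FL and 14.2 in Pre control. Cd163 was the lowest, at 0.0526 to 0.260 CPM per kb. In the order of the group means, 2 neighbouring groups were apart beyond their single libraries in 2 places for Csf1r (Pre control over Post control, and Post control over Post 2'-FL). They were apart in 1 place for C1qb (Post 2'-FL over Post control), C1qc (Pre 2'-FL over Post 2'-FL) and Lyz2 (Pre control over Post control), and in none for the other 5 genes. How often all tested genes are apart in this way is not given here. These places can therefore not be read as particular to the members.

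In the control arm 2 of the 8 tested members fell (Csf1r and Lyz2) and none rose, where 10.8% of all genes were called and 6.33% fell. Corrected, Csf1r and Lyz2 fell beside 12.2% of all genes called and 4.92% that fell. In the 2'-FL arm 2 fell (Csf1r and Itgam), where 55.3% of all genes were called and 30% fell. Corrected, 3 fell (Csf1r, Cd68 and C1qc) beside 35.5% of all genes called and 14.8% that fell. Over both arms 3 fell (Itgam, Csf1r and C1qc), where 56.4% of all genes were called and 31.1% fell. Corrected, 6 fell (all but Itgam and Mrc1) beside 43.2% of all genes called and 18.7% that fell. The median log2 change of the 8 members over both arms was -0.56, against -0.10 for all tested genes, and corrected it was -0.95 against 0.02. In Post 2'-FL against Post control 1 member fell (Csf1r) and 1 rose (Lyz2), where 38.1% of all genes were called, 19.3% lower and 18.8% higher. Corrected, edgeR called 0 members beside 21.6% of all genes, with 4 at an unadjusted p under 0.05; DESeq2, on uncorrected counts, called 2. In the interaction 1 member was called (Csf1r) beside 15.5% of all genes, and corrected 0 of all genes were called by edgeR, with 0 members and 2631 genes at an unadjusted p under 0.05. In Pre 2'-FL against Pre control edgeR called 0 members beside 0.0152% of all genes, with 0 at an unadjusted p under 0.05, and DESeq2 called 0. The members' log2 changes there ran from -0.13 to 0.09 with SE from 0.23 to 0.40, and the interval of Csf1r alone spans -0.69 to 0.80. The comparisons share libraries, so their counts are not independent of each other.

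**Figure D4:**
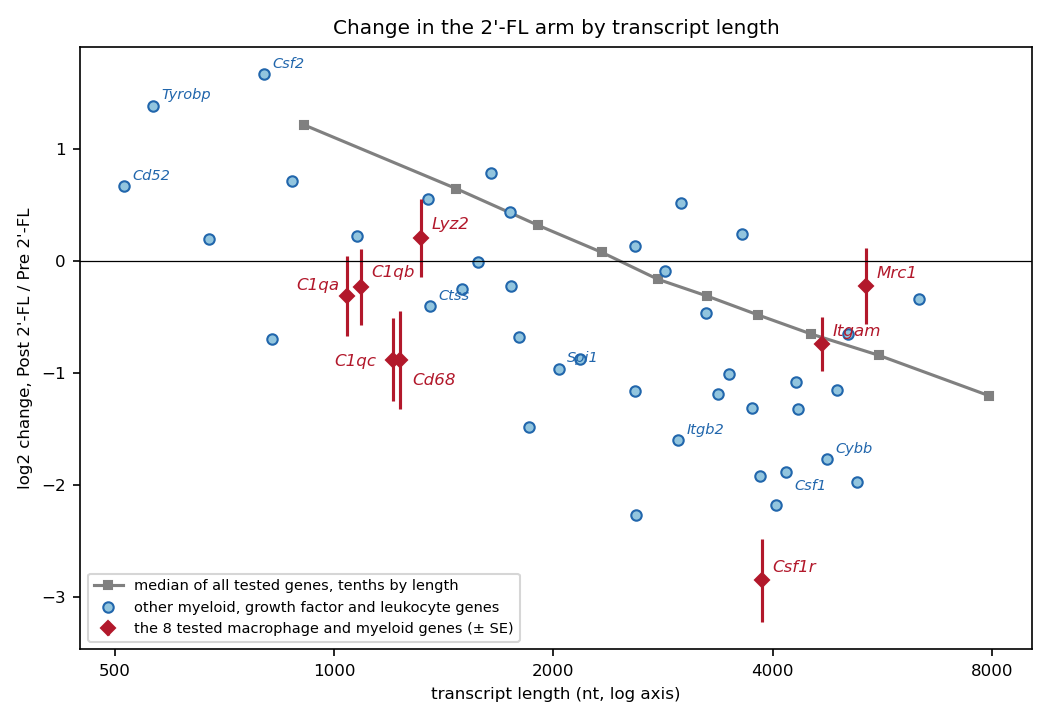
Log2 change of Post 2'-FL against Pre 2'-FL by transcript length (nt, log axis) for the 8 tested members (diamonds ± SE), other myeloid, growth factor and leukocyte genes (circles), and the median of all tested genes in 10 bins by length (squares). Csf1r lies below the line of medians, Itgam lies near it, and Mrc1 lies above it. The short C1q, Cd68 and Lyz2 transcripts lie below it.

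Other macrophage and monocyte genes were mixed in direction. Of 25 listed, 22 were tested, and over both arms 8 fell and 2 rose (Tyrobp and Cd14, the second named after its value was seen), with a median log2 change of -0.34, where 31.1% of all tested genes fell. Corrected, 9 fell and none rose, with a median of -0.55, where 18.7% of all tested genes fell. The lowest p went to Cybb, a subunit of the oxidase of phagocytes, at 6.38 ± 2.03 CPM in Post 2'-FL and 5.62 ± 2.21 CPM in Post control, against 21.8 ± 0.819 CPM in Pre 2'-FL and 18.7 ± 2.58 CPM in Pre control. Cybb fell by 1.74 ± 0.20 on the log2 scale without overlap (adjusted p = 3.14e-05; corrected -1.58) and was called in each arm. Mpeg1, a pore-forming protein of macrophages, fell by 1.22 ± 0.22 without overlap (corrected -0.93, called). Mertk, a receptor for dying cells, fell by 0.91 ± 0.21 (corrected -0.51, called), and Cx3cr1, the fractalkine receptor, by 1.49 ± 0.34 (corrected -1.13, called). Adgre1, which encodes F4/80, had a log2 change of -0.73 ± 0.28 (adjusted p = 0.0352) that was not called when corrected (-0.58, adjusted p = 0.0863) and was lost without any 1 of 9 libraries, with log2 values from -0.74 to -0.55. Those were all but Post control 1, Pre 2'-FL 1 and Pre control 1. Ccr2, a receptor of blood monocytes, did not pass the test (-0.19 ± 0.54, adjusted p = 0.781). In Post 2'-FL against Post control, where Csf1r was lower, 2 of the 22 tested genes rose and 3 fell, with a median log2 change of 0.41. Of all tested genes, 18.8% were called higher there and 19.3% lower. Corrected, 0 of the 22 rose and 2 fell, with a median of 0.17, beside 21.6% of all genes called.

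Tyrobp, a signalling adaptor of myeloid and natural killer cells with a transcript of 564 nt, went the other way. It read 65.1, 46.3 and 35.5 CPM in Post 2'-FL, 24.3, 14.3 and 14.1 CPM in Post control, 14.5, 20.2 and 21.5 CPM in Pre 2'-FL, and 12.7, 16.1 and 25.6 CPM in Pre control. The Post 2'-FL libraries lay above all others. Its log2 change was 1.48 ± 0.31 in Post 2'-FL against Post control (adjusted p = 0.00237; corrected 0.62, adjusted p = 0.104) and 0.67 ± 0.22 over both arms (adjusted p = 0.0159; corrected 0.21, adjusted p = 0.393).

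Genes of other cells were compared in the same way. Over both arms 56.4% of all tested genes were called and 31.1% fell (corrected, 43.2% and 18.7%). Of 10 pan-leukocyte genes 6 fell over both arms (corrected 6), and their median log2 change was -0.99; Lcp1 (-1.38 ± 0.24) and Laptm5 (-1.58 ± 0.28) were 2 of the 6, while Ptprc, which encodes CD45, did not pass (-0.49 ± 0.25, adjusted p = 0.108). All 7 tested endothelial and lymphatic genes fell (corrected 7), with Pecam1 at -1.71 ± 0.28. The summed level of the 8 listed endothelial genes ran from 20.8 to 29.6 CPM in Post 2'-FL and 30.9 to 43.8 CPM in Post control, against 80.1 to 157 CPM in Pre 2'-FL and 31.1 to 124 CPM in Pre control. Of 6 fibroblast genes 3 fell (corrected 1), and of 7 epithelial genes 1 rose, Fabp2, and 2 fell, Vil1 and Cdh1 (corrected, Fabp2 rose and Krt18 fell). The summed level of the 7 epithelial genes ran from 41100 to 46600 CPM in Post 2'-FL and 25400 to 34300 CPM in Post control, against 9810 to 17400 CPM in Pre 2'-FL and 13500 to 22800 CPM in Pre control. Fabp2 alone made up most of the Post sums. Without it the sum ran from 4130 to 7990 CPM in Post 2'-FL and 10800 to 11900 CPM in Post control, against 6780 to 9480 CPM in Pre 2'-FL and 7620 to 11900 CPM in Pre control. Of 6 tested dendritic cell genes 1 fell, Irf4, at -0.83 ± 0.29 (corrected -0.38, adjusted p = 0.287), a call lost without Post 2'-FL 1 or 2, Post control 2, Pre 2'-FL 2 or Pre control 3 (-0.75 to -0.65). Of 12 granulocyte genes only Siglecf and Prg2, both known from eosinophils, could be tested. Over both arms edgeR called 0 of them, with 0 at an unadjusted p under 0.05 and 0 by DESeq2. Prg2, named after its values were seen, averaged 3.54 ± 1.24 CPM in Post 2'-FL, 0.906 ± 0.421 CPM in Post control, 0.846 ± 0.881 CPM in Pre 2'-FL and 1.32 ± 1.12 CPM in Pre control. It was called in the 2'-FL arm (2.10 ± 0.71, adjusted p = 0.0211; corrected 1.15, adjusted p = 0.188) and in Post 2'-FL against Post control (1.96 ± 0.69, adjusted p = 0.0371; corrected 1.14, adjusted p = 0.214), and with 1 library left out the count of granulocyte genes called in each ran from 0 to 1. The neutrophil genes Ly6g, Mpo and Ngp were at 0 counts in all 4 groups. The call of Vil1 was lost without Post control 1 or 2, Pre 2'-FL 1 or Pre control 1 (-0.64 to -0.52), and that of Cdh1 without any 1 of 8 libraries (-0.37 to -0.26), with DESeq2 size factors (adjusted p = 0.0621) and with no filter on low counts (0.0551). The part of these cell types in the changes of the 9 genes was not tested.

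Complement genes beyond C1q were divided. Of 13 tested, 6 fell and 2 rose over both arms, with a median log2 change of -0.53 (corrected 5 fell and 1 rose). Of all tested genes, 56.4% were called there and 31.1% fell (corrected, 43.2% and 18.7%). C1ra, a protease that binds C1q, fell by 1.13 ± 0.32 (corrected -0.90, called). C3ar1 and C5ar1, the receptors for the fragments C3a and C5a on myeloid cells, fell by 1.31 ± 0.31 and 1.71 ± 0.43 (corrected -1.19 and -1.69, both called). C5ar1 was low, at 0.537 ± 0.631 CPM in Post 2'-FL (lowest library 0) and 1.66 ± 0.853 CPM in Post control. It averaged 3.70 ± 1.44 CPM in Pre 2'-FL and 2.98 ± 0.818 CPM in Pre control, so its change rests on few counts in Post. Cd55, which encodes a surface inhibitor of complement, rose by 1.22 ± 0.20 without overlap between Post and Pre (adjusted p = 0.000272; corrected 0.74, adjusted p = 0.00628). It averaged 75.6 ± 14.6 CPM in Post 2'-FL and 76.0 ± 24.2 CPM in Post control, against 30.6 ± 4.81 CPM in Pre 2'-FL and 34.6 ± 12.9 CPM in Pre control.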

How the data were processed

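The deposited values are estimated counts per gene, made by the authors for 12 libraries, 1 table each, with no normalization; 15.2% to 20.5% of entries are fractional. Libraries were made from about 1.5 µg of RNA with a TruSeq kit and sequenced on a HiSeq 2000, per the labels' protocols. The mm10 build and DESeq are named without a role, per the submitters' processing notes; aligner, counting program, annotation and strand are not given in the sources used here. The tables have 36186 entries, 486 of them for genes with several entries. Values were summed per Entrez gene, which left 35791 genes, and rounded to whole counts.

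Differences were tested in R 4.3.3 with edgeR 4.0.16 (filterByExpr by group, TMM scaling, 1 quasi-likelihood model with 4 group means, 8 residual degrees of freedom, biological coefficient of variation 0.238). P-values are two-sided and Benjamini-Hochberg adjusted over 13154 genes, with 0.05 as the threshold for a call. SE was derived from F and the log2 change. Intervals are 95%. CPM uses TMM-scaled library sizes. The length and GC correction fitted natural splines with 4 degrees of freedom to log2 CPM (prior count 2) in each library and entered as offsets; 12944 tested genes had a transcript length and 210 did not. The script was run on simulated counts with changes set in Post control and no trend with length or GC. That simulation cannot test the length and GC correction in data that hold such a trend.

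The members and lists were chosen with earlier results of these data known. Of each list, up to 4 genes with the smallest p over both arms are named. Csf1, Il34, Adgre1, Cx3cr1, Ccr2, Spi1, Ptprc, Itgb2, Tyrobp and Lyz1 are always named. Alternatives were DESeq2 1.42.0 with its own size factors, those size factors in edgeR, no filter, the replicate number as a block, the groups compared alone, and each library left out. Sequences are from RefSeq promoters and GENCODE transcripts. No pair of libraries of a group agreed within sampling noise.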

Additional observations from a re-analysis of the deposited data

Results flagged for a closer look

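The interaction of Csf1r (how far its change with 2'-FL departs from that without) differed from 0 by the test of the difference itself, at -1.53 on the log2 scale (adjusted p = 0.0457, by edgeR). Csf1r was lower in Post than in Pre in both arms, with changes of -2.85 in the 2'-FL arm and -1.32 in the control arm. The interaction was not called with length and GC corrected (-0.98, adjusted p = 0.253).

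The interaction of Tyrobp was 1.44 (adjusted p = 0.0381, by edgeR). Its changes were 1.39 ± 0.31 in the 2'-FL arm and -0.05 ± 0.31 in the control arm. The corrected interaction was 0.50 (adjusted p = 0.487). The call was lost without any 1 of 8 libraries, with log2 values from 1.11 to 1.57.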

How the results depend on the processing

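With length and GC corrected (value with the replicate block added in brackets), 6 (6) members were called over both arms against 3, 0 (0) in Post 2'-FL against Post control against 2, and 0 (0) in the interaction against 1. Genes called were 4669 (4593) in the 2'-FL arm against 7274, 2837 (2698) in Post against 5011 and 0 (0) in the interaction against 2038. Itgam turned to 0.08 (0.09) in the control arm, 0.00 (0.01) in the 2'-FL arm and 0.04 (0.05) over both. In the 2'-FL arm Lyz2 turned to -0.74 (-0.78) and Mrc1 to 0.21 (0.23). In Post, C1qa turned to -0.01 (-0.04) and C1qc to -0.34 (-0.33), in Pre C1qb to 0.04 (0.05), and in the interaction C1qa to -0.10 (-0.14) and C1qc to -0.32 (-0.31). Over both arms Cd209a turned to -0.46 (-0.46), Lum to -0.04 (-0.05) and Cdh1 to 0.15 (0.15). The cause was not tested.

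The interaction had 2 members called with DESeq2 size factors, 2 by DESeq2 and 2 with no filter. In Pre, DESeq2 called 24 genes, no filter 12 and the groups compared alone 1, against 2. There C1qa was 0.00 with DESeq2 size factors, 0.00 by DESeq2 and -0.02 with no filter, and C1qc in Post was -0.02 with no filter.

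With 1 library left out, members called ran from 0 to 4 in the control arm, 1 to 3 in the 2'-FL arm, 2 to 6 over both and 0 to 2 in the interaction (corrected, 0 to 4 and 2 to 6 in the arms). Genes called ran from 265 to 1843 in the control arm, 3279 to 5384 in Post, 0 to 17 in Pre and 424 to 3024 in the interaction. Directions turned for Lyz2 (-0.40 to 0.52) and Mrc1 (-0.39 to 0.04) in the 2'-FL arm, C1qc in Post (-0.21 to 0.47), and C1qc (-0.19 to 0.55) and Cd68 (-0.65 to 0.01) in the interaction. They also turned for Xcr1 (-0.71 to 0.01) and Ccr2 (-0.43 to 0.40) over both arms and Tyrobp in the control arm (-0.33 to 0.28). In Pre they turned for Cd68 (-0.37 to 0.13), C1qa (-0.31 to 0.35), C1qb (-0.31 to 0.33), C1qc (-0.35 to 0.23), Mrc1 (-0.23 to 0.31), Lyz2 (-0.07 to 0.29), Csf1r (-0.24 to 0.32) and Itgam (-0.02 to 0.23).

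Libraries share replicate numbers, and of 18 same-numbered pairs 3 had deviations correlated over 0.1 (r from -0.23 to 0.42). The highest r, 0.42, was between Pre 2'-FL 1 and Pre control 1. With 3 libraries a group these values cannot settle whether the numbers pair the libraries, and the labels name no pairing. The replicate block called 2 members and 1363 genes in the control arm, 2 and 7146 in the 2'-FL arm, 3 and 7273 over both, 2 and 4836 in Post, 0 and 3 in Pre, and 1 and 1574 in the interaction. With that block the calls over both arms of Il34 (-0.80, adjusted p = 0.0571), Adgre1 (-0.67, 0.052) and Cdh1 (-0.38, 0.0505) and of Tyrobp in the interaction (1.44, 0.057) were not made, nor, with block and correction together, that of Mertk (-0.49, 0.059). Low counts limit Cd163 and Cd68, and among the other genes named they limit C5ar1, Csf2 and others of similar level. Fractional counts and likeness to Lyz1 limit Lyz2.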
